A study of Mus musculus with 9 samples.

Results

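The Toll-like receptors with their endotoxin co-receptors Cd14 and Ly96 were followed through depletion of Brg1 in mouse acute myeloid leukaemia cells. The set was chosen by name and holds 10 genes, Tlr1, Tlr2, Tlr4, Tlr6, Tlr7, Tlr8, Tlr9, Tlr13, Cd14 and Ly96, of the 19937 genes measured. Each was read by exactly 1 probe set annotated with that symbol alone, and all 10 entered every test. The study measured total RNA on 9 Affymetrix whole-transcript arrays and addressed the role of SWI/SNF, the chromatin remodelling complex whose ATPase Brg1 is encoded by Smarca4, in leukaemia maintenance. All arrays came from RN2, a murine acute myeloid leukaemia cell line with MLL-AF9 and NrasG12D, so all groups share both oncogenes. All groups also carried the TRMPV vector, which expresses a short hairpin RNA under doxycycline, and all received 1 ug/ml doxycycline for 96 h. The groups were Brg1sh_3232, Brg1sh_3364 and Brg1sh_4935, which are 3 hairpins against Brg1 with 2 arrays each, and Rluc, a negative control hairpin against Renilla luciferase, which mouse cells lack, with 3 arrays. The labels add the term TtTMPV to the cell line of the Rluc arrays and not to that of the Brg1 hairpin arrays, so this difference in name runs with every comparison against Rluc and cannot be told apart from it. RN2 is 1 cell line, and no label tells whether replicates were grown apart. The p-values therefore speak of the spread among these arrays alone, and that spread could be technical.

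Toll-like receptors are membrane proteins by which myeloid cells recognise molecules of microbes. Those at the cell surface bind lipids and lipoproteins of bacterial envelopes: Tlr4 senses endotoxin only together with the secreted protein Ly96 (MD-2), to which Cd14 hands the lipid, and Tlr2 pairs with Tlr1 for triacylated and with Tlr6 for diacylated lipopeptides. Those in endosomes, Tlr7, Tlr8, Tlr9 and Tlr13, read nucleic acids. Most of them signal through the adaptor Myd88 and Irak kinases to NF-kB and interferon regulatory factors, and in myeloid development several, with Cd14, become abundant on monocytes and macrophages.

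Promoters of 6 of the 10 genes were searched, from the RefSeq table of promoters, assembly GRCm38.p6. An entry has 300 bases, 250 before and 50 after the transcription start. Those of Cd14, Ly96, Tlr7 and Tlr4 were not searched, so the counts of motifs leave out these genes, of which Cd14, Ly96 and Tlr7 rose. The promoters of 4 genes are shown because they belong to the endosomal receptors that rose most, Tlr13 and Tlr8, and to the receptors that fell, Tlr1 and Tlr6. They are the regions chrX:106143025-106143324 (plus strand) for Tlr13, chrX:167264280-167264579 (minus strand) for Tlr8, chr5:64933509-64933808 (minus strand) for Tlr1 and chr5:64959999-64960298 (minus strand) for Tlr6. For Tlr1 and Tlr6 the most upstream start of the table was taken. Capitals mark GAGGAA or its reverse complement TTCCTC, a core of sites bound by the myeloid ETS factor PU.1.
Tlr13: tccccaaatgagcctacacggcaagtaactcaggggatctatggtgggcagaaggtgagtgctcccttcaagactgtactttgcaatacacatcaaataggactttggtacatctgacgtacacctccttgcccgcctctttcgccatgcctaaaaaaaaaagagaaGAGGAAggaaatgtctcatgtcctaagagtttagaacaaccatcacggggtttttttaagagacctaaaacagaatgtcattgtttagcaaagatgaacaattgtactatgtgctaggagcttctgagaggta
Tlr8: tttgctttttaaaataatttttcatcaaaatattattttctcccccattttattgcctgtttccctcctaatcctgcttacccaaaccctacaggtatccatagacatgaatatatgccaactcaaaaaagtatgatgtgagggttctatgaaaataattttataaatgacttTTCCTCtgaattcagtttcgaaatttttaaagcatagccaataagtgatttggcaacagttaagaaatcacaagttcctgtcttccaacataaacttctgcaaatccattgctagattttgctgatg
Tlr1: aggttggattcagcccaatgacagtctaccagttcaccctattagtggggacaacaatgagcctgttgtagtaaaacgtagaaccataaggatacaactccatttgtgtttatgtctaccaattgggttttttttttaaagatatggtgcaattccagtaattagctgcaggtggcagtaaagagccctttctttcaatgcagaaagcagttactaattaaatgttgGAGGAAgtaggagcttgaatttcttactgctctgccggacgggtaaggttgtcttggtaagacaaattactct
Tlr6: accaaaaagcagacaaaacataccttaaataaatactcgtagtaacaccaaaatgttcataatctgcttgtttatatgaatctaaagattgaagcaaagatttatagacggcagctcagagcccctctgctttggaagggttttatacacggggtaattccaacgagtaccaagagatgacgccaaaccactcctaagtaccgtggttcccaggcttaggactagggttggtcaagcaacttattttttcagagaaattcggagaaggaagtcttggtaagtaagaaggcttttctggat

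GAGGAA on either strand was present in 4 of the 6 promoters, those of Tlr13, Tlr8, Tlr1 and Tlr9, and in 28.28% of all 32851 promoters of the table. It lay at bases -83, -77 and -23 from the start in Tlr13, Tlr8 and Tlr1. Genes that rose and a gene that fell thus share these letters. The ETS and IRF composite motif, present in 2.715% of all promoters, and the interferon response motif, present in 3.443%, were found in 0 of the 6 at the most upstream start, and TGANTCA, the AP-1 type present in 7.808%, was found only in that of Tlr9 among the 6. All were searched on both strands, and no 2 of these motifs overlapped in the printed windows. The second start of Tlr6, which is not printed, had interferon response matches at bases -116 and -110. The percentages count every entry of the table, second starts included, while each gene was counted at its most upstream start. A match is a description of letters and was not tested as a site.

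Knockdown was visible in Smarca4 itself. Its log2 expression was 10.67 and 10.90 with Brg1sh_3232, 10.78 and 10.81 with Brg1sh_3364 and 10.70 and 10.76 with Brg1sh_4935, against 11.79, 11.77 and 11.79 with Rluc. The fall of the hairpin mean was 1.01 ± 0.05 (SE) on the log2 scale (limma, adjusted p = 2.22e-06), and the hairpins did not differ in it by the F test (adjusted p = 0.802). Over all probe sets, arrays correlated at 0.996 to 0.997 inside a group and at 0.989 to 0.994 between a hairpin and Rluc.

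With the Brg1 hairpins 4 of the 8 Toll-like receptors and both co-receptors were higher than with Rluc. In the equally weighted mean of the 3 hairpins minus Rluc, Tlr13, Ly96, Tlr8, Cd14, Tlr7 and Tlr2 rose, Tlr1 and Tlr6 fell, and Tlr4 and Tlr9 did not pass the test. Thus 8 of 10 were called, 6 higher and 2 lower, where 28.3% of all genes were called, 13.3% higher and 15.0% lower. By the mean over all 9 arrays, all 10 lie in the brighter part of the genes measured. With genes below the median of that brightness left out, 55.6% of the remaining genes were called, beside 9 of the 10. Tlr8 on Rluc, at 6.91, 7.33 and 7.06, was below the array medians of 7.39 to 7.49. Its place in the brighter part thus leans on the hairpin arrays. A call means a limma p, adjusted by Benjamini-Hochberg over all 19937 genes, below 0.05. The median log2 change of the 10 genes was 0.48, against -0.00 over all genes. With arrays centred on their medians, 9 of the 10 were called, beside 29.9% of all genes. The share of higher genes among all genes called was then 36.5% in place of 47.1%, and the median over all genes shifted by -0.04.

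By hairpin, 7 of the 10 were higher and 1 lower with Brg1sh_3232 (background 20.8% of all genes, 9.59% higher and 11.3% lower), 6 higher and 2 lower with Brg1sh_3364 (background 25.7%, 13.6% higher and 12.2% lower), and 7 higher and 1 lower with Brg1sh_4935 (background 22.1%, 9.79% higher and 12.3% lower). With genes below the median brightness left out, 44.3%, 50.2% and 45.4% of the remaining genes were called in that order of hairpins. The medians of the log2 changes of the 10 genes were 0.57, 0.29 and 0.52 in the same order. All 3 comparisons use the same Rluc arrays. For 8 of the 10 genes all 6 hairpin arrays lay on one side of all Rluc arrays, 6 above and 2 below, as did 22.8% of all genes, 10.7% above and 12.1% below.

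**Figure D1:**
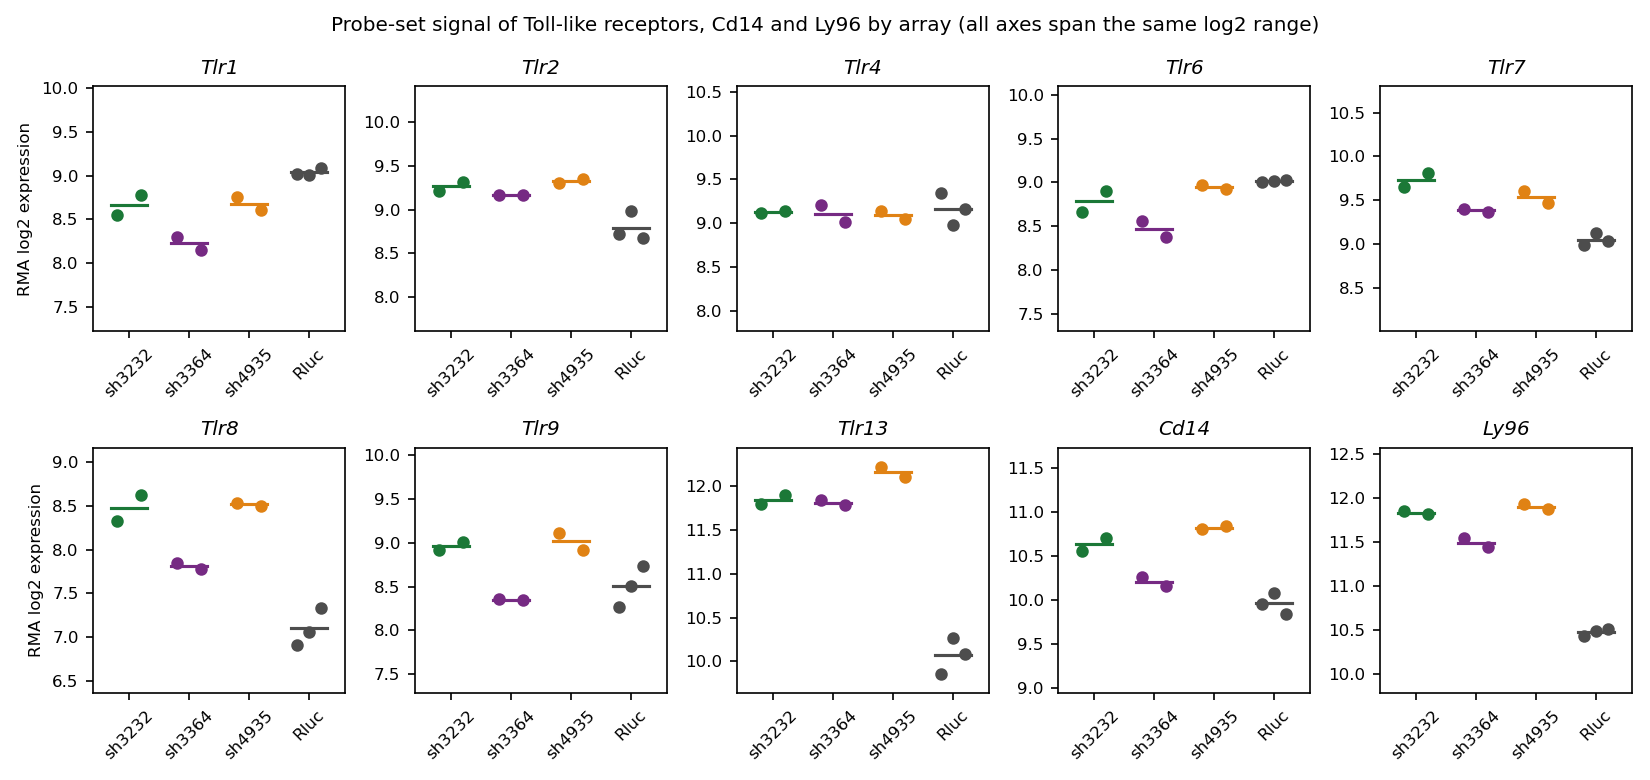
Log2 expression (RMA) of each of the 10 genes on every array, with the hairpin groups Brg1sh_3232, Brg1sh_3364 and Brg1sh_4935 (written sh3232, sh3364 and sh4935) left of Rluc. Points are arrays and short lines are group means. Tlr13, Ly96 and Tlr8 separate farthest from Rluc upward, Tlr1 and Tlr6 lie below it, and Tlr4 overlaps it in every group.

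**Figure D2:**
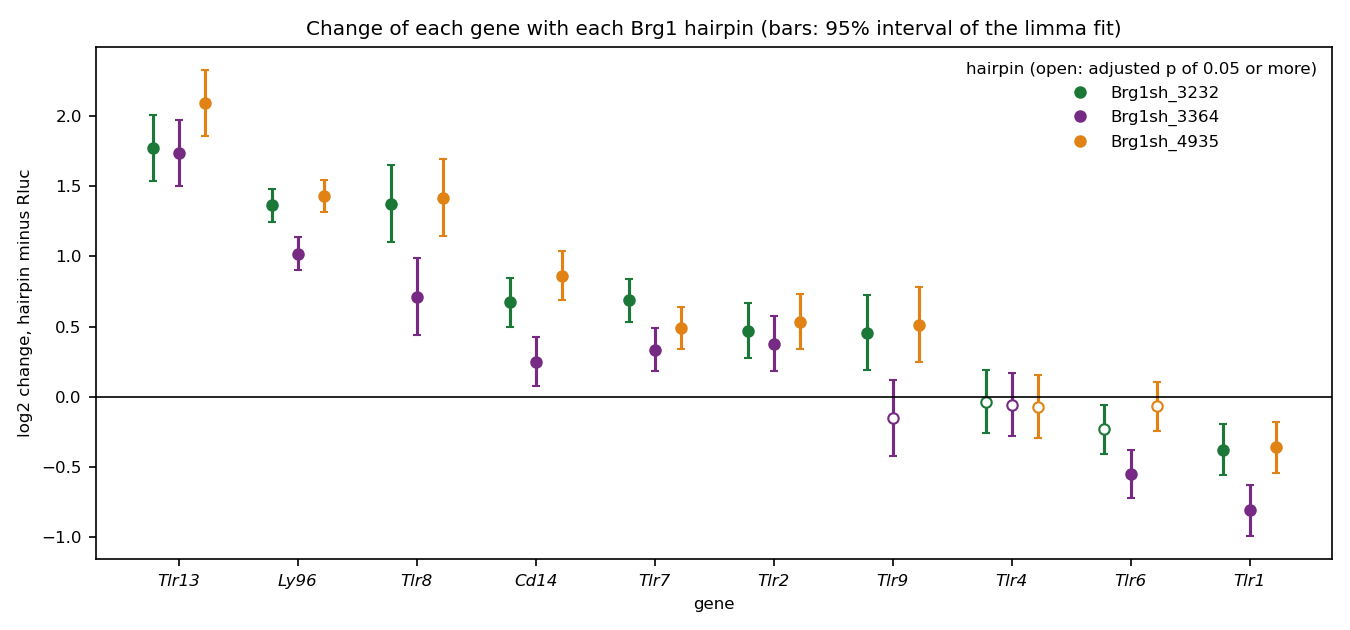
Log2 change of each gene with each hairpin against Rluc, with 95% confidence intervals from limma as bars and open points where the adjusted p was 0.05 or more. Points above 0 are higher with the hairpin. The interval of Tlr4 spans 0 throughout, that of Tlr9 for Brg1sh_3364 and that of Tlr6 for Brg1sh_4935.

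Markers of other cell types were read on the same arrays. As background for their counts in the mean of the hairpins, 28.3% of all genes were called, 13.3% higher and 15.0% lower. Of genes above the median brightness 55.6% were called. Of 9 measured macrophage and monocyte markers, none of them among the 10 genes, 7 rose and 1, Ccr2, fell in the mean of the hairpins, by 0.27 on the log2 scale; without Brg1sh_3364 its difference was 0.064 (adjusted p = 0.307). Their summed log2 expression was 95.7 to 96.4 with Brg1sh_3232, 93.1 to 93.7 with Brg1sh_3364 and 97.0 to 97.4 with Brg1sh_4935. With Rluc it was 89.8 to 89.9, so this list was higher with each hairpin. Of the 10 genes, 6 rose as well in the mean of the hairpins, while Tlr1 and Tlr6 fell and Tlr4 and Tlr9 were not called. Of 10 neutrophil markers, 5 rose and 1, Camp, fell. In the mean of the hairpins, 0 of the 10 dendritic, 7 T and NK cell and 3 erythroid markers measured passed limma's test, and 0 had an unadjusted p below 0.05, while 1 of 7 B cell markers rose and 1 fell. By hairpin, the dendritic markers Tcf4 and Bst2 fell with Brg1sh_3364 (by 0.33 and 0.38 on the log2 scale, limma adjusted p = 0.0035 and 0.0175), and Cd209a rose by 0.39 with Brg1sh_4935 (adjusted p = 0.0216). The call of Bst2 was lost without either array of Brg1sh_3364 (0.0521 and 0.135), and that of Cd209a without either array of Brg1sh_4935 (0.0727 and 0.166) or Rluc replicate 3 (0.0589). The myeloid leukaemia list, which checks the labelled cell type, was bright on all arrays, with a mean log2 expression of 12.8 to 13.0. Of its 10 markers 4 rose and 4 fell in the mean: the granule enzyme genes Mpo, Elane and Ctsg fell by 0.87, 0.38 and 0.20, and Cebpa, a factor of granulocyte development, by 0.61, while Ptprc, Spi1, Itgam and Cd33 rose by 0.31, 0.26, 0.40 and 0.25. The fall of Ctsg lost its call without Brg1sh_3364 (-0.13, adjusted p = 0.0699). With Brg1sh_3364 5 of the 10 fell and 4 rose, beside 25.7% of all genes called. The part of these lists in the receptors' changes was not tested. The log2 scale has no zero and no detection calls were used, so no marker can be called absent. In bulk RNA, fewer cells of a type and less RNA per cell cannot be told apart.

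Tlr13, an endosomal receptor for a stretch of bacterial large-subunit ribosomal RNA that humans lack, had the largest change among the 10 genes. Its log2 expression was 11.79 and 11.90 with Brg1sh_3232, 11.84 and 11.78 with Brg1sh_3364 and 12.22 and 12.11 with Brg1sh_4935, against 9.86, 10.08 and 10.27 with Rluc. The lowest hairpin array lay far above the highest Rluc array, by more than any group spread. The fitted log2 changes were 1.77, 1.74 and 2.09 by hairpin (SE 0.10 each; adjusted p = 1.46e-05, 8.78e-06 and 3.53e-06 by limma), and the mean change was 1.87 ± 0.08, a 3.65-fold rise (adjusted p = 1.00e-06). Between hairpins, Brg1sh_3364 minus Brg1sh_3232 was -0.03, with a 95% interval from -0.29 to 0.22, and Brg1sh_4935 minus Brg1sh_3232 was 0.32, with an interval from 0.06 to 0.58 (adjusted p = 0.224).

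Tlr8, whose product senses RNA breakdown products in humans and whose role in mice is less settled, was 8.33 and 8.62 with Brg1sh_3232, 7.85 and 7.78 with Brg1sh_3364 and 8.54 and 8.50 with Brg1sh_4935, against 6.91, 7.33 and 7.06 with Rluc. All 6 hairpin arrays were above all Rluc arrays, with Brg1sh_3364 nearest to them. The Rluc values lay below the array medians of 7.39 to 7.49, so the fold changes start from a low signal. The rises were 2.60-fold, 1.64-fold and 2.67-fold by hairpin, and the mean log2 change was 1.17 ± 0.09 (SE; limma adjusted p = 2.75e-05).

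Tlr7, the receptor for single-stranded RNA, had 9.65 and 9.82 with Brg1sh_3232, 9.40 and 9.37 with Brg1sh_3364 and 9.60 and 9.47 with Brg1sh_4935, against 8.99, 9.03 and 9.13 with Rluc. The groups did not overlap. The log2 changes were 0.69, 0.34 and 0.49 (SE 0.07 each; limma adjusted p = 0.000208, 0.00575 and 0.000887), and the mean was 0.50 ± 0.05, or 1.42-fold. The call with Brg1sh_3364 was lost without its replicate 1 (adjusted p = 0.0526).

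Tlr9, the receptor for DNA with unmethylated CpG, depended on the hairpin. Its values were 8.91 and 9.003 with Brg1sh_3232, 8.36 and 8.34 with Brg1sh_3364 and 9.11 and 8.92 with Brg1sh_4935, against 8.26, 8.73 and 8.51 with Rluc. The arrays of Brg1sh_3232 and Brg1sh_4935 lay above all Rluc arrays, and those of Brg1sh_3364 lay within the Rluc range. Tlr9 rose by 0.46 ± 0.12 with Brg1sh_3232 (limma adjusted p = 0.0244) and by 0.51 ± 0.12 with Brg1sh_4935 (adjusted p = 0.0129), while the change with Brg1sh_3364 was -0.15, with a 95% interval from -0.42 to 0.12. The mean change of 0.27 ± 0.09 had an adjusted p of 0.0549, and over 23 alternatives the value ran from 0.15 to 0.48 and the adjusted p from 0.00819 to 0.48. It was 0.15 without Rluc replicate 1 (0.187) and 0.39 without Rluc replicate 2 (0.00819). It was 0.48 without Brg1sh_3364 (0.0158), and 0.18 and 0.15 without Brg1sh_3232 or Brg1sh_4935 (0.294 and 0.367). The call with Brg1sh_3232 was lost in 8 of 19 alternatives (adjusted p 0.00594 to 0.152), among them leaving out either of its own arrays or Rluc replicate 3 (adjusted p = 0.083, 0.152 and 0.0571) and the replicate block (0.0635). The call with Brg1sh_4935 was lost without its replicate 1 (adjusted p = 0.133).

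In the endotoxin receptor complex, both co-receptors rose and the signalling receptor did not pass the test. Ly96, the secreted subunit that binds the lipid of endotoxin, was 11.85 and 11.82 with Brg1sh_3232, 11.54 and 11.44 with Brg1sh_3364 and 11.93 and 11.87 with Brg1sh_4935, against 10.42, 10.51 and 10.49 with Rluc. The gap between hairpin and Rluc arrays was many times the spread within any group. Ly96 rose 2.57-fold, 2.03-fold and 2.70-fold by hairpin, and its mean log2 change of 1.27 ± 0.04 (SE) had the smallest adjusted p of the 10 genes (limma, 2.24e-07).

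Cd14, the surface protein that passes endotoxin to Ly96 and Tlr4, was 10.56 and 10.71 with Brg1sh_3232, 10.26 and 10.16 with Brg1sh_3364 and 10.80 and 10.84 with Brg1sh_4935, against 9.96, 9.84 and 10.08 with Rluc. The arrays of Brg1sh_3364 lay just above the highest Rluc array and the others farther above it. The log2 changes were 0.67, 0.25 and 0.86 (SE 0.08 each; limma adjusted p = 0.000441, 0.0435 and 7.93e-05), and the mean was 0.59 ± 0.06. The call with Brg1sh_3364 was lost in 11 of 19 alternatives (adjusted p 0.0155 to 0.251), among them leaving out replicate 1 or 2 of Brg1sh_3364 (0.251 and 0.0907), either replicate of Brg1sh_4935 (0.0742 each) or Rluc replicate 1 or 2 (0.0885 and 0.111). With the 3 hairpin means as replicates the mean change had an adjusted p of 0.052.

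Tlr4, the endotoxin receptor itself, was 9.12 and 9.14 with Brg1sh_3232, 9.20 and 9.01 with Brg1sh_3364 and 9.14 and 9.04 with Brg1sh_4935, against 9.35, 9.16 and 8.98 with Rluc. The Rluc arrays spread more widely than all 6 hairpin arrays and enclosed them. The mean log2 difference was -0.05 ± 0.08 (SE), with a 95% interval from -0.23 to 0.12 (limma adjusted p = 0.697), and it was 0.04 without Rluc replicate 1.

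Among the lipopeptide receptors, the shared partner rose and its alternatives fell. Tlr2, which takes part in both pairs, was 9.21 and 9.32 with Brg1sh_3232, 9.17 and 9.17 with Brg1sh_3364 and 9.31 and 9.35 with Brg1sh_4935, against 8.73, 8.67 and 8.98 with Rluc. All hairpin arrays were above the highest Rluc array. The log2 changes were 0.47, 0.38 and 0.54 (SE 0.09 each; limma adjusted p = 0.00492, 0.0113 and 0.0021), with a mean of 0.46 ± 0.07, or 1.38-fold. The call was lost for Brg1sh_3232 without its replicate 2 (adjusted p = 0.0562) and for Brg1sh_3364 without its replicate 1 or 2 (0.0704 and 0.0728).

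Tlr1, the partner for triacylated lipopeptides, was 8.54 and 8.78 with Brg1sh_3232, 8.30 and 8.16 with Brg1sh_3364 and 8.75 and 8.61 with Brg1sh_4935, against 9.02, 9.09 and 9.01 with Rluc. Every hairpin array was below every Rluc array, lowest with Brg1sh_3364. Tlr1 fell by 0.38, 0.81 and 0.36 on the log2 scale (SE 0.08 each; limma adjusted p = 0.00949, 0.000117 and 0.0109), and by 0.52 ± 0.06 on average, which is 1.43-fold (adjusted p = 0.000277). Its call was lost for Brg1sh_3232 without replicate 1 of that hairpin (adjusted p = 0.0762) and for Brg1sh_4935 without its replicate 2 (0.117).

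Tlr6, the partner for diacylated lipopeptides, was 8.67 and 8.90 with Brg1sh_3232, 8.56 and 8.37 with Brg1sh_3364 and 8.97 and 8.93 with Brg1sh_4935, against 9.01, 9.02 and 9.02 with Rluc. Every hairpin array was below the Rluc arrays, which were nearly equal, but the arrays of Brg1sh_4935 by little. Tlr6 fell by 0.55 ± 0.08 with Brg1sh_3364 (limma adjusted p = 0.000803). The differences were -0.23 with Brg1sh_3232 (adjusted p = 0.0637) and -0.07 with Brg1sh_4935 (adjusted p = 0.641). With Brg1sh_3232 Tlr6 was called lower in 4 of 19 alternatives: after quantile normalization (0.0251), with arrays centred (0.0299), with dim genes left out (0.0334) and without replicate 2 of that hairpin, where the value was -0.35 (0.0267), against -0.11 without its replicate 1 (0.402). The mean change of -0.28 ± 0.06 (adjusted p = 0.00597) lost its call in 3 of 23 alternatives: without Brg1sh_3364 the value was -0.15 and the adjusted p 0.116, with hairpin as a random block 0.159, and with the 3 hairpin means as replicates 0.176.

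The hairpins were next set against each other, to ask which genes responded to a different degree. By limma's F test, 7 of the 10 differed among the hairpins, where 10.5% of all genes and 24.4% of those above the median brightness did: Ly96, Cd14, Tlr8, Tlr6, Tlr1, Tlr9 and Tlr7. Brg1sh_3364 was lower than Brg1sh_3232 for those 7 (background 9.66% either way and 3.84% lower) and lower than Brg1sh_4935 for 6 of them, all but Tlr7 (background 7.61% and 3.10% lower). Among genes above the median brightness, 23.1% and 16.6% were called either way in these 2 differences. Both differences share the Brg1sh_3364 arrays. Between Brg1sh_4935 and Brg1sh_3232, 0 of 10 were called by limma, with 2 at an unadjusted p below 0.05 (background 1.02%).

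Brg1sh_3364 minus Brg1sh_4935 was -0.71 ± 0.13 for Tlr8 (SE), -0.67 ± 0.13 for Tlr9 and -0.61 ± 0.08 for Cd14, with limma adjusted p-values of 0.0133, 0.0156 and 0.00336. It was -0.48 ± 0.08 for Tlr6, -0.45 ± 0.09 for Tlr1 and -0.41 ± 0.06 for Ly96 (adjusted p = 0.00961, 0.0156 and 0.00319). So Brg1sh_3364 gave smaller rises of Tlr8, Cd14 and Ly96, no called rise of Tlr9, and deeper falls of Tlr1 and Tlr6. Against Brg1sh_3232 its differences ran from -0.66 for Tlr8 to -0.32 for Tlr6. For Tlr2 the hairpins differed by -0.10, -0.16 and 0.06 in the 3 pairs, with 95% intervals within -0.37 and 0.28, and for Tlr13 the F test gave an adjusted p of 0.122.

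Smarca4 differed by 0.06 or less between any 2 hairpins. The macrophage and monocyte list was lowest with Brg1sh_3364 among the hairpins, while the neutrophil list was highest with it: 119.4 to 119.6 summed log2, against 114.2 to 114.2 with Brg1sh_3232 and 116.4 to 116.4 with Brg1sh_4935, and 115.8, 113.7 and 110.6 on Rluc replicates 1, 2 and 3. The Rluc arrays thus spread more on this list than any hairpin group and enclosed Brg1sh_3232. Without Rluc replicate 3, the lowest of them, 8 members were called in the mean of the hairpins and 8 by the F test. The F test compares the hairpins alone, so an Rluc array enters it only through the shared estimate of the spread. Its count therefore cannot tell whether the Rluc spread on this list matters. The part of the lists in the differences was not tested. The count of 7 rests on few arrays: it was 3 and 1 without replicate 1 or 2 of Brg1sh_3364, 2 and 3 without replicate 1 or 2 of Brg1sh_4935, and 2 with a test of every probe set. Of the 7 differences between Brg1sh_3364 and Brg1sh_3232, 1 was called without replicate 2 of Brg1sh_3232 or without either array of Brg1sh_3364, and of the 6 against Brg1sh_4935, 2 or 3 were called without any single array of that pair. Ly96 passed the F test in all 17 settings run and Cd14 in 16 of them.

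Partners of a receptor were compared within arrays, as the log2 value of one minus that of the other. Levels of different probe sets cannot be compared, so only the shift of this quantity between groups is read. Tlr2 minus Tlr1 was 0.73 ± 0.18 (SD, n = 6) on hairpin arrays and -0.24 ± 0.20 (SD, n = 3) on Rluc arrays, a shift of 0.98, and the groups did not overlap (exact two-sided permutation p = 0.0238, 0.0286 adjusted over 6 pairs). Tlr2 minus Tlr6 shifted by 0.75 and Ly96 minus Tlr4 by 1.33 with the same exact p, which is the smallest that 6 against 3 arrays allow. Relative to Rluc, Tlr2 thus gained on both of its partners and Ly96 on Tlr4, in RNA. On every hairpin array Tlr2 lay above all Rluc arrays, and Tlr1 and Tlr6 lay below them. For both Tlr2 pairs the exact p was therefore fixed by values already given and adds no support. The same holds for Ly96 minus Tlr4. Ly96 was at least 11.44 on hairpin arrays and at most 10.51 on Rluc arrays. That gap is wider than the whole range of Tlr4 over the 9 arrays, 8.98 to 9.35. The adjustment over 6 pairs counts all of these pairs too. The exact test also treats the 6 arrays as replicates of 1 condition, though they come from 3 hairpins.

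Cd14 minus Tlr4 was 1.44 ± 0.29 (SD, n = 6) on hairpin arrays and 0.79 ± 0.26 (SD, n = 3) on Rluc arrays (exact permutation p = 0.0476, also 0.0476 adjusted), and it passed in only 2 of 10 alternatives, since most leave-one-out splits gave p = 0.0714 or more. Tlr8 minus Tlr7, neighbours on the X chromosome, was -1.28 ± 0.25 (SD, n = 6) on hairpin arrays and -1.95 ± 0.22 (SD, n = 3) on Rluc arrays, a shift of 0.67 (exact permutation p = 0.0238). Tlr1 minus Tlr6 shifted by -0.23, also with p = 0.0238 in the exact test. Leaving out 1 Rluc array makes the smallest possible p 0.0714, so none of the 6 can pass then.

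**Figure D3:**
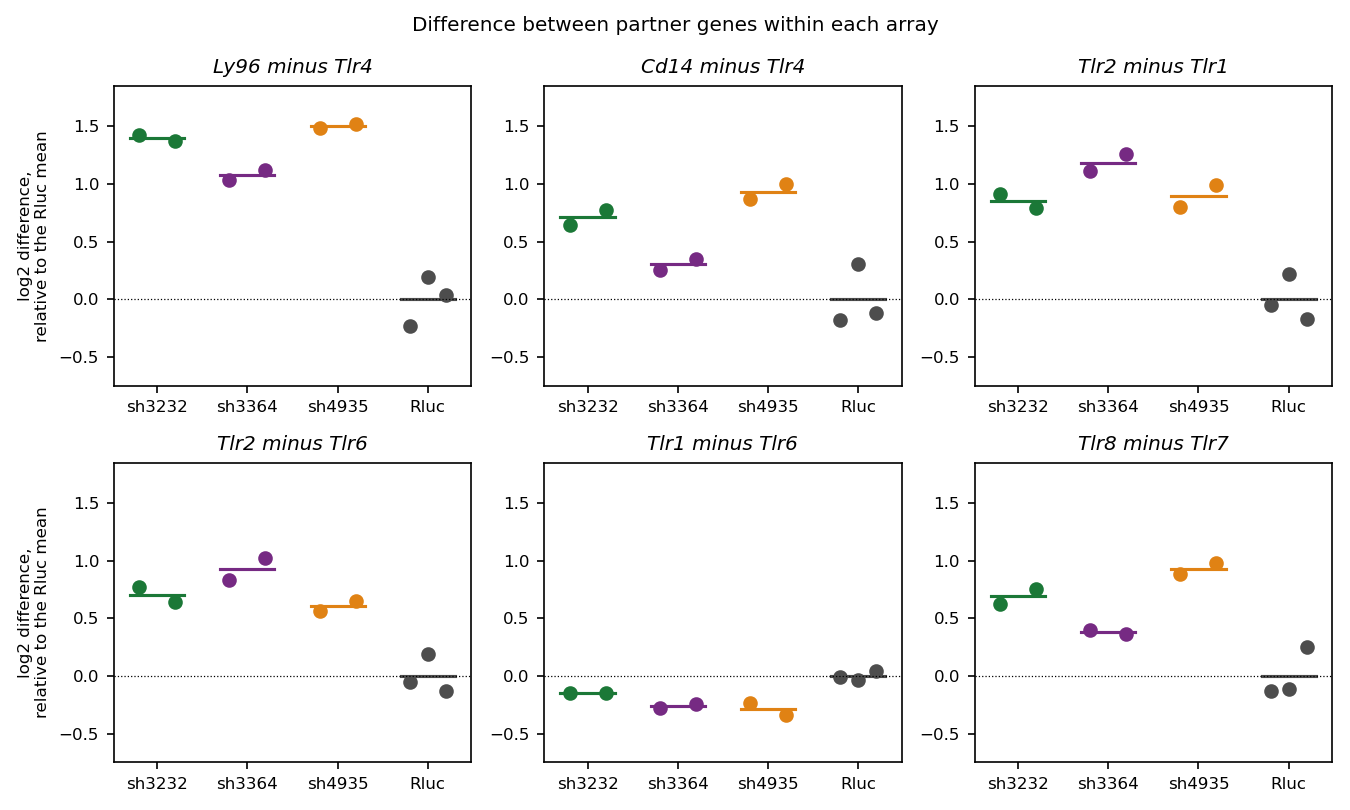
Difference in log2 expression within each array for 6 pairs of partner genes, drawn relative to the Rluc mean of that pair, hairpin arrays left of Rluc arrays. Points are arrays and lines are group means. For Ly96 minus Tlr4 all 6 hairpin arrays lie above the 3 Rluc arrays, while for Cd14 minus Tlr4 the arrays of Brg1sh_3364 overlap those of Rluc.

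Several members are neighbours in the genome, by the order of genes in RefSeq (GRCm38.p6). Tlr1 and Tlr6 stand next to each other on chromosome 5, and both fell on average. Outside the pair, Klf3, a zinc finger transcription factor, differed by 0.00 (limma adjusted p = 0.975) and Fam114a1 by -0.10 (adjusted p = 0.22, but 0.0167 after quantile normalization and 0.04 with arrays centred). Tlr8 and Tlr7 stand side by side on chromosome X between Tmsb4x, which encodes an actin-binding thymosin and differed by 0.04 (adjusted p = 0.717), and Prps2, a nucleotide synthesis enzyme that was lower by limma (-0.19, adjusted p = 0.0215). The call of Prps2 was lost without replicate 2 of Brg1sh_3364 (0.056), replicate 2 of Brg1sh_4935 (0.0574) or replicate 2 or 3 of Rluc (0.0839 and 0.0916). Tlr13 lies between the copper transporter gene Atp7a, which rose by 0.80 ± 0.04 (SE; adjusted p = 3.88e-06), and the glycolytic gene Pgk1, which differed by 0.04 (adjusted p = 0.449). These neighbours were picked by place, after their values were seen. Of all 28 measured genes outside the set within 2 places of a member, 8 were called, 4 higher and 4 lower, or 28.6%, beside 28.3% of all genes.

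The genes whose pattern over the 9 arrays was most like that of a member were found by the root mean square difference of values, each taken minus its own Rluc mean. For Tlr13 they were Tgfbi at 0.13, Cd244a at 0.155 and Pcp4l1 at 0.157 (log2 units). For Ly96 they were Cyp4f18 at 0.0674, Cpq at 0.108 and Ggact at 0.114, and for Tlr8 Rbm47 at 0.112, Olfm1 at 0.114 and again Cpq at 0.142. The nearest to Cd14 were St8sia4 at 0.0773, Ninj1 at 0.0829 and Sesn1 at 0.0849. Tlr7 was nearest to Map4k4 at 0.0605, Entpd4 at 0.0716 and Hmox1 at 0.077, and Tlr1 to Gpr132 at 0.0795, Synj2 at 0.0828 and Lrrc8c at 0.0918. Among the members the closest pair was Tlr2 and Tlr7 at 0.125, followed by Tlr8 and Ly96 at 0.185, whereas the neighbours Tlr7 and Tlr8 stood 0.585 apart.

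The rest of the pathway was read from lists arranged by role. Of 91 listed genes 83 were measured, of which 36 rose, 7 fell and 40 were not called in the mean of the hairpins, beside 28.3% of all genes called, and the median change was 0.08 against -0.00 over all genes. Among genes above the median brightness 55.6% were called, and the 83 genes were not matched for brightness. With the 3 hairpin means as replicates, 28 were called, 24 higher and 4 lower, beside 14.1% of all genes. Tlr3, the endosomal receptor for double-stranded RNA, differed by 0.08 ± 0.05 (SE; limma adjusted p = 0.282) and Tlr12, a receptor for protozoan profilin in mice, by 0.03 ± 0.09 (adjusted p = 0.893). Tlr5 and Tlr11 were not analysed here.

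Of 15 accessory and trafficking genes 6 rose and 2 fell in the mean of the hairpins. With Brg1sh_3364 alone 4 rose and 3 fell, beside 25.7% of all genes called. Lgmn and Ctss, endosomal proteases of the kind that trim nucleic acid receptors, rose by 2.77 ± 0.11 and 0.98 ± 0.10 on the log2 scale (limma adjusted p = 5.46e-07 and 9.02e-05), and Lbp, the serum protein that delivers endotoxin to Cd14, fell by 0.47 (adjusted p = 7.14e-05). Of 6 adaptors 3 rose and 1 fell. Tirap, which bridges Tlr2 and Tlr4 to Myd88, rose by 0.30 ± 0.04, and Pik3ap1, which links the receptors to PI3K, by 0.23 ± 0.03. Ticam2, the adaptor that takes Tlr4 to the interferon branch, fell by 0.32 (adjusted p = 0.000492).

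Among 15 kinases and ubiquitin ligases 5 rose and 2 fell. Irak2 rose by 0.46 ± 0.05 and Tab2, a partner of the kinase TAK1, by 0.22 ± 0.03, while Map3k8, the kinase that feeds ERK, was higher by 0.10, 0.72 and 0.41 by hairpin and its mean of 0.41 had an adjusted p of 0.133 with the 3 hairpin means as replicates and 0.0599 with hairpin as a random block. Of 8 transcription factors 5 rose and 0 fell in the mean of the hairpins (5 had an unadjusted p below 0.05). With Brg1sh_3364 alone 4 rose and 1 fell, beside 25.7% of all genes called. Irf5 and Irf7, which carry the Myd88 signal to cytokine and interferon genes, rose by 1.34 ± 0.08 and 1.20 ± 0.06 (limma adjusted p = 5.96e-06 and 2.78e-06), and Nfkb2 by 0.48 ± 0.06.

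The inhibitors of the pathway had 9 higher and 1 lower of 16. Nfkbie and Nfkbia, which hold NF-kB in the cytoplasm, rose by 1.08 ± 0.06 and 0.55 ± 0.05, and Tnfaip3 (A20), the ubiquitin-editing brake on NF-kB, by 0.67 ± 0.03 (limma adjusted p = 3.84e-06, 6.52e-05 and 2.54e-06). Of 21 output genes 8 rose and 1 fell. The cytokine genes Il12a, Il1b and Tnf rose by 0.99 ± 0.06, 0.62 ± 0.04 and 0.50 ± 0.03 (adjusted p = 6.57e-06, 4.73e-06 and 8.87e-06). The median changes by role ran from 0.04 for kinases and ligases to 0.25 for transcription factors, all smaller than the 0.48 of the 10 receptors and co-receptors, and that difference was not tested.

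**Figure D4:**
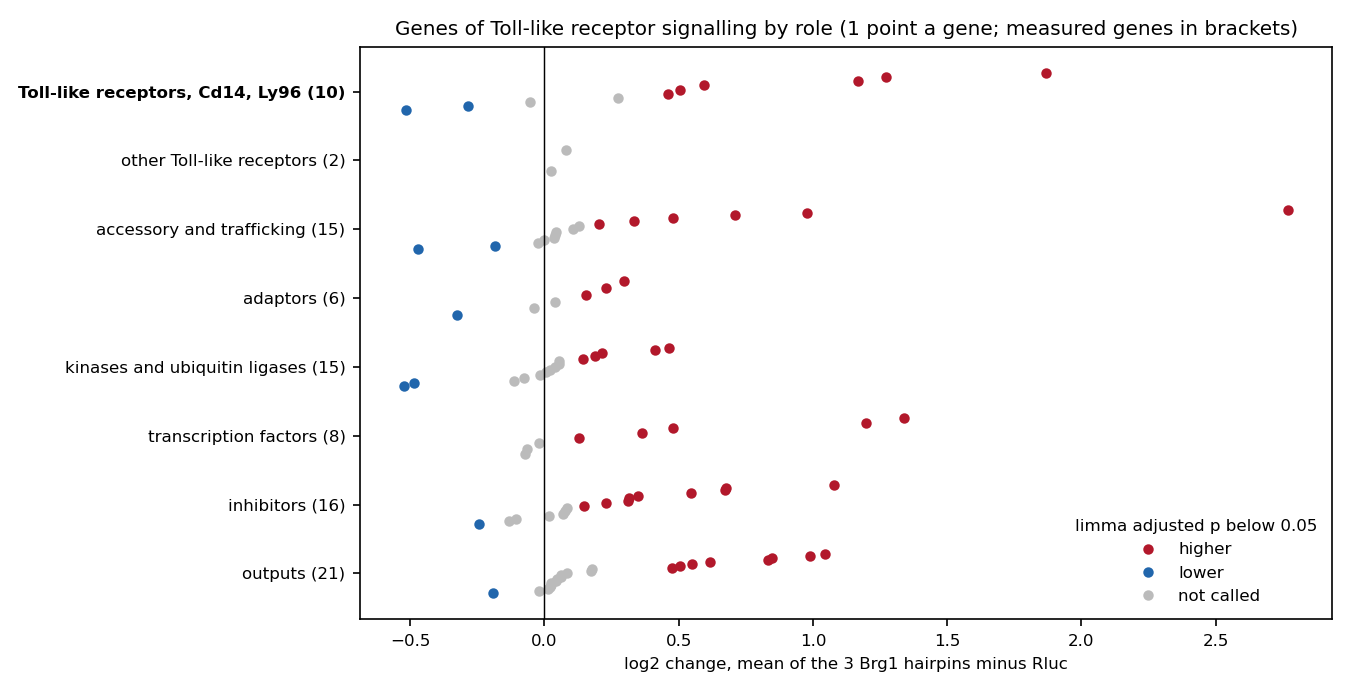
Log2 change of the measured genes of the pathway, mean of the 3 Brg1 hairpins minus Rluc, by role. Each point is a gene, coloured as higher, lower or not called by limma, and its height within a role has no meaning. Lgmn at 2.77 is the point farthest right, and Tlr13 at 1.87 is next.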

How the data were processed

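Total RNA of 9 RN2 samples was measured on Affymetrix whole-transcript arrays. Per the submitters' processing notes, the authors used RMA to make the deposited log2 values, 1 per probe set and array. RMA removes background, forces equal quantiles on the arrays and summarises probes. The RMA version is not given in the sources used here, nor is the array's build, and raw scans were left aside. In the deposited values array medians still ran from 7.39 to 7.49, so the arrays did not share 1 distribution. The platform annotation gave 1 gene symbol to 21640 of 34760 probe sets, several to 1321 and none to 11799. The brightest probe set stood for each of 19937 genes, with no filter. Arrays have no counted depth, so their number limits the precision.

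A limma fit (version 3.58.1, R 4.3.3) of 1 mean per group used every array (5 residual and 3.85 prior degrees of freedom), with two-sided tests and Benjamini-Hochberg adjustment. The fit was tested on simulated data. Differences within arrays were tested by exact permutation in scipy 1.17.1. Alternatives covered scaling, dim genes, probe sets, eBayes settings, array weights, replicate blocks, hairpins as replicates and each array left out. The members and lists were chosen with earlier results of these data known. Genes outside the set were named by rule: the other Toll-like receptors, the 3 smallest p-values of each role list, and the 3 genes most like each member that changed by at least 0.5 on the log2 scale. Neighbours of the paired receptors and of Tlr13, and the markers named, fall outside that rule and were chosen after their values were seen.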

Additional observations from a re-analysis of the deposited data

Results flagged for a closer look

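The responses of 7 genes to the 3 Brg1 hairpins differed from each other by limma's F test. The adjusted p-values were 0.00439 for Ly96, 0.0057 for Cd14, 0.0153 for Tlr8, 0.0168 for Tlr6, 0.0172 for Tlr1, 0.0187 for Tlr9 and 0.0395 for Tlr7. For all 7, Brg1sh_3364 had the lowest mean of the 3 hairpins. Smarca4 was at 10.79 ± 0.16 (SD, n = 2) with Brg1sh_3232, 10.79 ± 0.02 (n = 2) with Brg1sh_3364 and 10.73 ± 0.04 (n = 2) with Brg1sh_4935, against 11.79 ± 0.01 (n = 3) with Rluc.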

How the results depend on the processing

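Over the 40 results of single genes against Rluc and their 800 alternatives, 752 kept direction and side of the threshold, 35 lost the call, 8 gained it and 5 changed sign. The 5 are all of Tlr4: without Rluc replicate 1 it was 0.054, 0.033 and 0.019 by hairpin and 0.035 in the mean, and it was 0.039 for Brg1sh_3364 without its replicate 2. Tlr4 otherwise ran down to -0.13, -0.15 and -0.16 by hairpin and -0.15 in the mean with an array left out. Other values near 0 changed sign too. Tlr12 was -0.0092 with quantile normalization, -0.017 centred, -0.0098 with the replicate block, -0.022 without Brg1sh_3232 and -0.0059 without Brg1sh_4935. Klf3 was -0.00036 with quantile normalization, -0.038 centred, -0.067 with the block, -0.016 with array weights and -0.082 without Brg1sh_3364. Tmsb4x was -0.0060 centred and -0.0020 with the block. With an array left out, Tlr12 ran from -0.039 to 0.10, Klf3 from -0.067 to 0.044 and Tmsb4x from -0.0020 to 0.10.

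Counts of called members with each array left out were 6 to 8 for Brg1sh_3232, 5 to 8 for Brg1sh_3364 (5 without its replicate 1), 7 to 8 for Brg1sh_4935 and 8 to 9 for the mean. They were 1 to 8 for the F test, 1 to 6 for Brg1sh_3364 minus Brg1sh_3232 (1 without replicate 2 of Brg1sh_3232 or either array of Brg1sh_3364), 2 to 7 for Brg1sh_3364 minus Brg1sh_4935 (2 or 3 without any array of the pair) and 0 to 0 for Brg1sh_4935 minus Brg1sh_3232; pathway genes called were 38 to 44. With every probe set tested, the F test called 2, Brg1sh_3364 minus Brg1sh_3232 called 1 and Brg1sh_3364 minus Brg1sh_4935 called 3, beside 3.26%, 4.09% and 2.42% of all rows. An adjusted p below 0.01 gave 2, 1 and 3, beside 3.89%, 3.81% and 3.20% of all genes. Pathway genes called were 28 with hairpin means as replicates. The cause was not tested, beyond fewer arrays or more features in the test. Counts with an array left out are given without the share of all genes, so they cannot be set against a background. Of all genes, 28.3% were called in the mean, but 14.1% with hairpin means as replicates, 18.1% with hairpin as a random block, 17.9% with every probe set and 55.6% without dim genes, and the F test called 10.5%, 3.26% and 24.4% in the main, every-probe-set and dim-gene settings. Tlr9 in the mean gained its call in 4 of 23 alternatives, also centred (0.0452) and without dim genes (0.0268), and reached 0.48 with hairpin means as replicates. Prps2 lost its call with the block (0.111). Among the markers, Ccr2 was 0.064 without Brg1sh_3364, and with hairpin means as replicates Elane, Ctsg, Spi1, Ccr2 and Camp lost their calls (0.0784, 0.192, 0.0599, 0.633 and 0.128).

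Whether same-numbered arrays pair could not be settled. In 12 same-numbered pairs the deviations from group means correlated from -0.0721 to 0.249, with 2 above 0.1. Those 2 set Brg1sh_3232 against Rluc, at 0.190 and 0.249. In a hairpin group of 2 arrays the deviations mirror each other, so the pairs are not independent. The best match had the same number for 4 of 9 arrays, but Rluc replicate 3 has no same-numbered array. With the replicate block, members called were 7 for Brg1sh_3232, 8 for Brg1sh_3364, 8 for Brg1sh_4935, 8 for the mean and 6 by the F test (Tlr7 at 0.0532). The shares of all genes called were 17.5%, 22.7%, 20.1%, 23.6% and 11.8% in the same order. Pathway genes called in the mean were 41 with the block.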
